A study of Mus musculus with 9 samples.

Results

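The 10 genes examined here encode the enzymes of the lower part of glycolysis, from aldolase to pyruvate kinase: Aldoa and Aldoc (aldolases), Tpi1 (triosephosphate isomerase), Gapdh (glyceraldehyde-3-phosphate dehydrogenase), Pgk1 (phosphoglycerate kinase), Pgam1 (phosphoglycerate mutase), Eno1, Eno2 and Eno3 (enolases) and Pkm (pyruvate kinase). They were taken by symbol, by a rule that uses no measured value, and are 10 of the 40548 genes in the deposited tables. Each symbol matched 1 row, and all 10 genes passed the filter on low values used for testing. RNA-seq was done on primary calvarial osteoblasts of C57BL/6 mice (C57BL/6J in the methods), cells released from the skull bones of pups that the labels give as postnatal day 2 to 3, with male and female pups used according to the methods. Day 0 cells were confluent and not yet differentiated, in medium free of ascorbic acid. Day 4 and day 7 cells had spent that time in mineralization medium, which holds ascorbic acid and β-glycerol phosphate, with fresh medium each day. The labels name neither an allele nor a drug in any group, and the methods describe cells of wild type and of ColI-GFP reporter pups without saying which were sequenced. There were 3 libraries at each stage, 9 in all. The study calls the libraries of a stage biological replicates, and as neither it nor the labels says whether these were separate litters, isolations or cultures, p-values measure the spread between the libraries. Mineralized cells were taken up with collagenase I and then trypsin, cells that had not mineralized with trypsin alone, so harvest and stage cannot be told apart.

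Lower glycolysis begins where aldolase splits fructose bisphosphate into a pair of triose phosphates. Triosephosphate isomerase makes these interchangeable, Gapdh oxidizes glyceraldehyde-3-phosphate while it reduces NAD+ to NADH, and phosphoglycerate kinase and pyruvate kinase each transfer a phosphate to ADP and so make ATP without oxygen. Several steps have isoform genes with a known tissue preference: Aldoa and Eno1 are the widespread forms, Eno3 and Pgam2 the muscle forms, Eno2 the neuronal form and Aldoc a form abundant in brain. Osteoblasts are known for a high rate of glucose use with release of lactate, and the question here is which enzyme genes of this stretch of the pathway changed as calvarial cells differentiated.

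The reads counted on genes ranged from 7741204 to 14013219 at day 0, from 32820610 to 37306090 at day 4 and from 10675858 to 15622755 at day 7. Values are CPM, the reads on a gene scaled to the same total of reads on genes, unless RPKM, which also divides by gene length, is named. Day 4 lies in a table of its own with greater depth, so differences between it and the other stages carry no test. Where their sizes are given, they compare separately normalized tables. Day 0 replicate 3 stood apart: its 10 highest genes took 22.1% of its reads, against 11.2% and 11.8% in the other day 0 libraries, and it held the lowest day 0 CPM for 81.6% of all genes tested. Replicates differed by more than counting noise in all 9 pairs within a stage, with a chi-square per gene between 12.7 and 222 where counting alone gives about 1. Of the 11 osteoblast markers 10 were higher at day 7, and their summed level was 32841 to 41032 CPM at day 0 and 87919.7 to 110443 at day 7. Macrophage markers rose too (7 of 7 tested, summed CPM 62.5 to 104.5 at day 0 and 124.5 to 164 at day 7), as did osteoclast markers (3 of 3 tested, summed CPM 150.3 to 199 at day 0 and 348 to 363 at day 7), and 1 of 2 adipocyte markers tested (8.91 to 17.5 against 20.03 to 25.7 summed CPM). Of 7 chondrocyte markers 3 were higher and 3 lower, with Col2a1 (−2.16 on the log2 scale) among the lower, and their sum was 949.9 to 2749.7 CPM at day 0 and 321 to 858 at day 7, whereas red blood cell and endothelial markers summed to at most 2.68 CPM in every library. The part of other cells in the results on the 10 genes was not tested, and in bulk samples fewer cells of a type and less RNA per cell cannot be told apart.

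Near-identical copies limit what can be read on these genes, because only uniquely aligned, unambiguous reads were counted. For each gene, every stretch of 50 bases in its protein-coding transcripts (GENCODE M21) was looked up in the transcripts of other genes. Genes that overlap its locus were left out of this search, and for Aldoa also any other gene entry of the same symbol. Of these stretches, 68.0% were found elsewhere for Pgk1, 58.4% for Gapdh, 49.5% for Eno1, 41.5% for Pgam1, 18.4% for Pkm, 8.46% for Aldoa, 6.83% for Tpi1 and 0.197% for Eno2, while Aldoc and Eno3 shared 0. With stretches of 100 bases the shares were 67.0% for Pgk1, 53.1% for Gapdh, 39.7% for Pgam1 and 39.5% for Eno1. The read length is not given in the sources used here. Pgk1 shared stretches with 5 pseudogenes and Gapdh with 213. The stretch of Gapdh that lies in the most pseudogenes, 80 of them, is shown because it makes the limit on Gapdh concrete. It is coding bases 415 to 464, counted from the A of the start codon, at chr6:125162898-125162947 on the reverse strand of GRCm38, inside 1 exon.
Gapdh: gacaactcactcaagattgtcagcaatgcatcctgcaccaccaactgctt
The members themselves did not share any stretch of 50 bases with each other, so reads of the isoform genes could be kept apart. Aldoa and Aldoc were 75.7% identical over 1089 aligned coding bases, with a longest identical run of 26 bases. The enolase genes were between 75.1% and 77.8% identical in pairs, with longest runs of 20 to 23 bases. The most alike stretches of 60 coding bases within an exon are printed to show how the isoform genes were told apart, with bases that differ from the first sequence of each group in capitals. The aldolase pair covers coding bases 397 to 456, at chr7:126796679-126796738 on the reverse strand for Aldoa and at chr11:78325066-78325125 on the forward strand for Aldoc.
Aldoa: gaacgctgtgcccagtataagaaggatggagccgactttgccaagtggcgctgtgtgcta
Aldoc: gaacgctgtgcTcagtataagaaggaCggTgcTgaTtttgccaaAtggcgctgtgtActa
The enolase stretches cover coding bases 451 to 510 of each gene, at chr4:150245121-150245180 on the forward strand for Eno1, chr6:124766262-124766321 on the reverse strand for Eno2 and chr11:70660666-70660725 on the forward strand for Eno3.
Eno1: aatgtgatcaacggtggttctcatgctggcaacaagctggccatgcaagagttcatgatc
Eno2: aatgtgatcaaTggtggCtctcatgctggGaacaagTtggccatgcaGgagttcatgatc
Eno3: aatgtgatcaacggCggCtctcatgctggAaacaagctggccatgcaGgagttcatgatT
Aldoc differed from Aldoa at 7 of these 60 bases, and Eno2 and Eno3 each differed from Eno1 at 5.

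Between day 0 and day 7, 9 of the 10 genes rose and 0 fell by limma, a linear model fitted to the 12712 genes that averaged 1 CPM or more, at a Benjamini-Hochberg adjusted p under 0.05. Over all genes tested, 12.6% were called higher and 18.6% lower, 1602 of the 3971 calls being higher, and with median-of-ratios scaling 2843 of 5455 calls were higher. The 0 lower members held at an unadjusted p under 0.05 and with edgeR and DESeq2. Every step of lower glycolysis had at least 1 gene that rose, and Eno2 was the gene that did not pass. The median log2 fold change of the 10 genes was 1.07, against −0.11 over all genes tested. In 9 genes the lowest day 7 library exceeded the highest day 0 library, which was so for 16.9% of all genes, and the exact permutation test gave its smallest two-sided p for 3 libraries against 3, 0.1, for each of the 10 genes. Changes were computed from log2(CPM + 0.5), and the added 0.5 makes those of low genes look smaller than they are. The calls on the 9 genes held in all 16 alternative analyses. The size of the adjusted p-values depended on the setting, and limma pools the variance of each gene with that of other genes. For Aldoc the limma, edgeR or DESeq2 adjusted p ranged from 4.09e-80 to 1.47e-06 over the alternatives.

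**Figure D1:**
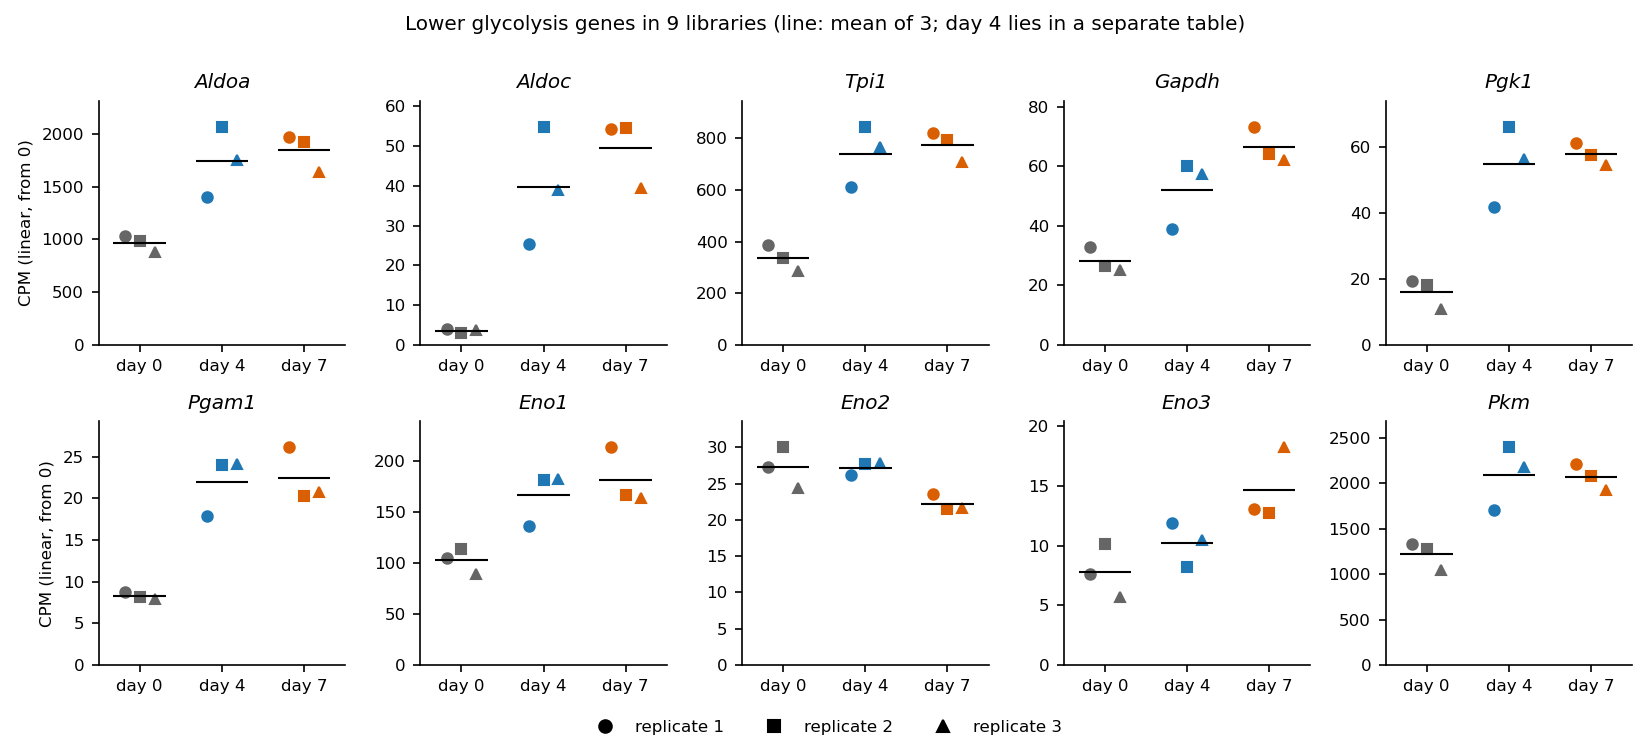
CPM of each gene in every library, with day 0 in grey, day 4 in blue and day 7 in orange, the marker shape giving the replicate number and the black line the mean of 3 libraries, on a linear axis from 0 that differs between panels. In 9 panels the day 7 points lie above all day 0 points, from 0.93 on the log2 scale for Aldoa to 3.61 for Aldoc among the aldolases, and in the Eno2 panel they lie below.

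Aldoa, the widespread aldolase, lies at chr7:126795234-126800751 on the reverse strand of GRCm38. It had 1033, 985 and 878 CPM in the day 0 libraries, 1401, 2064 and 1756 at day 4, and 1973, 1923 and 1637 at day 7. The day 7 libraries lay far above the day 0 libraries and overlapped those of day 4. Its log2 fold change from day 0 to day 7 was 0.93 (standard error 0.17, limma adjusted p = 1.86e-05).

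Aldoc, at chr11:78322968-78327781 on the forward strand, changed most of the 10 genes. It had 4.07, 3.01 and 3.62 CPM at day 0, from 57, 36 and 28 reads. At day 4 it had 25.4, 54.8 and 39.0 CPM, and at day 7 54.3, 54.6 and 39.4. The lowest differentiated library, day 4 replicate 1, was still well above the highest day 0 library. The mean rose 13.9-fold to day 7, or 3.61 on the log2 scale (standard error 0.19, limma adjusted p = 1.75e-21), which was the 76th largest among the 12712 genes. Even so, Aldoc stayed far below Aldoa. Its share of the summed RPKM of Aldoa and Aldoc was 0.331%, 0.257% and 0.346% at day 0, 1.51%, 2.19% and 1.84% at day 4, and 2.27%, 2.34% and 1.99% at day 7. The shares of the stages did not overlap between day 0 and day 7 (difference 1.89 percentage points, exact permutation test, two-sided p = 0.1, Benjamini-Hochberg adjusted 0.133 over the 4 shares tested). Of 7 markers of astrocytes and glia 3 were tested, with 0 called higher and 1 lower, where 12.6% and 18.6% of all genes were. The summed level of the 7 genes was 24.1 to 42.7 CPM at day 0 and 27.4 to 32.4 at day 7, and Aqp4 was at 0 in every day 4 and day 7 library. Whether such cells bear on the Aldoc values was not tested.

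Tpi1, at chr6:124810586-124814296 on the reverse strand, interconverts the triose phosphates. Its values were 385, 337 and 286 CPM at day 0, 612, 844 and 765 at day 4, and 822, 792 and 709 at day 7. All differentiated libraries were above all day 0 libraries, and the log2 fold change to day 7 was 1.21 (standard error 0.16, limma adjusted p = 2.55e-08). Tpi1 shared few stretches with copies and had at least 2214 reads in each library, so it was used below as the gene to which the others were compared.

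Gapdh, at chr6:125161715-125166467 on the reverse strand, is often used as a reference gene in expression studies. It had 32.8, 26.4 and 25.0 CPM at day 0, 39.0, 60.1 and 57.3 at day 4, and 73.2, 64.1 and 62.2 at day 7. The mean rose at each step, and day 7 overlapped with neither earlier stage. The log2 fold change to day 7 was 1.23 (standard error 0.16, limma adjusted p = 2.49e-08), a 2.37-fold rise in the mean. Because of the shared stretches, the level itself is not that of the whole transcript. The reads on 192 Gapdh pseudogenes present in the table were therefore summed. They came to 25.4, 22.3 and 21.4 CPM at day 0, 34.5, 52.8 and 44.8 at day 4, and 53.4, 43.3 and 40.0 at day 7, between 64.3% and 88.4% of the Gapdh value in the same library. These pseudogenes were each low, with only 2 of them over 1 CPM on average at day 7. Their sum was 1.98-fold higher at day 7 than at day 0, without overlap of the libraries (two-sided p = 0.1 by the exact permutation test). Gapdh with these rows added averaged 51.1 ± 6.21 CPM at first and 112 ± 12.9 by day 7 (SD, n = 3 each), a 2.19-fold rise, against 2.37-fold for Gapdh alone. Whether these reads arose from Gapdh or from its copies was not tested. The sum left out genes annotated as protein coding that also share stretches with Gapdh.

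Pgk1, at chrX:106187100-106203699 on the forward strand, makes the first ATP of glycolysis. Its values were 19.3, 18.1 and 10.7 CPM at day 0, 41.6, 66.0 and 56.3 at day 4, and 61.3, 57.5 and 54.4 at day 7. The differentiated libraries stood clear of day 0, where replicate 3 was low at 83 reads. The change of 1.86 on the log2 scale (standard error 0.18, limma adjusted p = 5.85e-12) was second to that of Aldoc.

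Pgam1, at chr19:41911923-41918660 on the forward strand, moves the phosphate group of phosphoglycerate. It had 8.77, 8.19 and 7.88 CPM at day 0, 17.8, 24.1 and 24.1 at day 4, and 26.1, 20.3 and 20.7 at day 7, so that day 4 and day 7 overlapped and both lay above day 0. The log2 fold change was 1.37 (standard error 0.18, limma adjusted p = 3.55e-08). Pgam2, the muscle form of the same enzyme and not among the 10 genes, rose as well, from 3.49, 3.18 and 4.00 CPM at day 0 to 15.0, 12.4 and 10.2 at day 7 (log2 fold change 1.67, limma adjusted p = 6.41e-09). Between them, at day 4, Pgam2 had 8.40, 3.56 and 6.43 CPM, with replicate 2 inside the range of day 0.

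Eno1, at chr4:150236721-150248879 on the forward strand, had 105, 113 and 88.6 CPM at day 0, 136, 181 and 181 at day 4, and 213, 167 and 164 at day 7. Day 7 lay above day 0 in every library and overlapped day 4, and the log2 fold change was 0.82 (standard error 0.16, limma adjusted p = 4.56e-05).

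Eno3, at chr11:70657202-70662513 on the forward strand, had 7.63, 10.1 and 5.68 CPM at day 0, 11.9, 8.17 and 10.5 at day 4, and 13.0, 12.7 and 18.2 at day 7. Unlike the other genes that rose, it overlapped between day 0 and day 4, and it was higher at day 7 than in any day 4 library. The log2 fold change to day 7 was 0.88 (standard error 0.20, limma adjusted p = 6.04e-04). Of 12 skeletal muscle markers 10 lay under the filter, with Ckm and Myod1 at 0 in every day 0 and day 7 library, and the other 2, Acta1 and Des, rose. Their sum was 4.13 to 7.27 CPM at day 0 and 10.3 to 15.8 at day 7.

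Eno2, at chr6:124760053-124769673 on the reverse strand, went the other way. It had 27.3, 30.0 and 24.4 CPM at day 0, 26.2, 27.7 and 27.8 at day 4, and 23.6, 21.5 and 21.7 at day 7. Day 4 fell within day 0, and every day 7 library lay below every earlier library. The log2 fold change of −0.28 (95% interval −0.62 to 0.06, limma adjusted p = 0.213) did not pass. It passed as lower without day 0 replicate 3, at −0.36 (limma adjusted p = 0.0225), the 1 such call over the alternatives. That fit called 4696 of the 12712 genes tested lower, and the median log2 fold change over all genes was −0.23 in it. Over the 16 alternatives the limma, edgeR or DESeq2 adjusted p of Eno2 ranged from 0.0225 to 0.522. Of the neuron markers, Tubb3 did not pass, Map2 fell, Stmn2 rose, and Snap25, Rbfox3 and Elavl3 lay under the filter, with a summed level for the 8 genes of 52.9 to 65.3 CPM at day 0 and 58.2 to 79.4 at day 7.

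Pkm, at chr9:59656368-59679375 on the forward strand, makes pyruvate and the last ATP of the pathway. Among the 10 genes it was the highest in counted reads, where Pgk1, Gapdh, Eno1 and Pgam1 shared more of their stretches with other genes. Pkm had 1331, 1279 and 1046 CPM at day 0, 1701, 2395 and 2181 at day 4, and 2213, 2075 and 1931 at day 7. The means of the later stages, 2093 ± 355 and 2073 ± 141 CPM (SD, n = 3 each), differed by less than their spread. The log2 fold change from day 0 to day 7 was 0.77 (standard error 0.17, limma adjusted p = 4.08e-04), the smallest of the 9 rises. The values are per gene, so the M1 and M2 forms of pyruvate kinase, which differ by the choice of an exon, were not separated. Of 4 splicing factors known to bear on that choice, Srsf3 was lower at day 7 (log2 fold change −0.50, limma adjusted p = 0.0227, with 0 to 3 of the 4 called lower over the alternatives), and Ptbp1 (−0.23), Hnrnpa2b1 (−0.30) and Hnrnpa1 (0.07) did not pass.

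**Figure D2:**
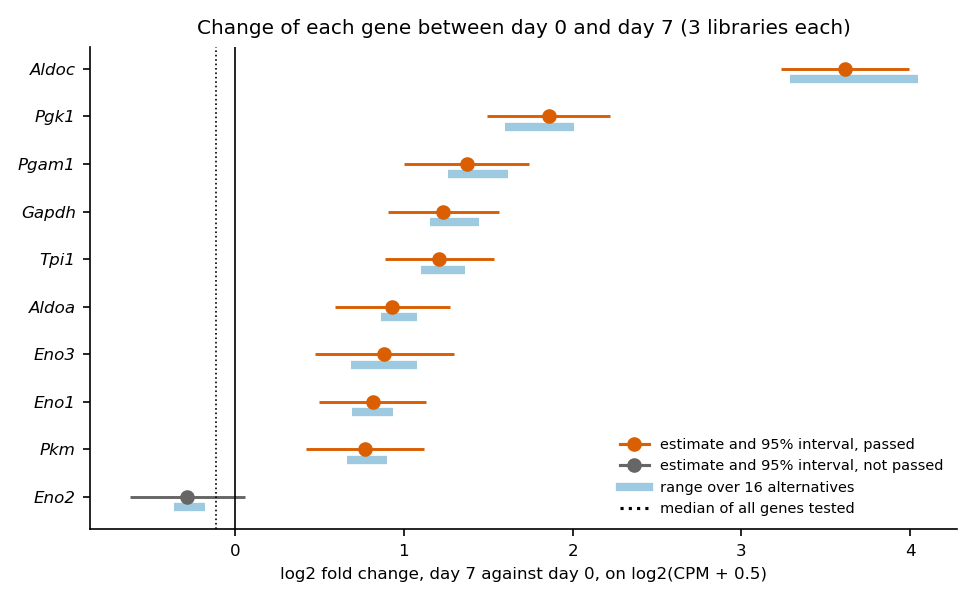
Log2 fold change of each gene from day 0 to day 7 with its 95% interval (limma, 3 libraries a stage), in orange where it passed and grey where it did not, with the range of the estimate over 16 alternatives as a blue bar and the median of all genes tested, −0.11, as a dotted line. The blue bars of all genes that rose stay right of 0, with Aldoc (3.61) well apart from the other genes, and the Eno2 interval spans 0.

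The mix of enolase genes shifted, because Eno1 and Eno3 rose and Eno2 did not. Eno2 made up 19.5%, 19.2% and 20.8% of the summed enolase RPKM at day 0, 14.7%, 13.3% and 12.9% at day 4, and 9.62%, 10.7% and 10.1% at day 7. The stages did not overlap, and the mean share fell by 9.70 percentage points from day 0 to day 7 (exact permutation test, two-sided p = 0.1, adjusted 0.133). Eno1 took 63.3% to 66.1% before differentiation and at least 66.8% by day 7, with means of 65.0% and 71.7%. The Eno3 share averaged 15.1% ± 2.21 and 18.2% ± 4.43 at these stages (SD, n = 3 each), with overlapping libraries (exact permutation test, two-sided p = 0.5). As shares of CPM, which leaves gene length out, Eno2 went from 19.9% to 10.3% on average, Eno1 from 74.5% to 82.9% and Eno3 from 5.61% to 6.84%. The sizes of the Eno1 and Eno3 shares therefore depend on the division by gene length. These shares rest on levels of different genes, and the reads that Eno1 shared with copies were not counted, so the change between stages is firmer than the share itself. From day 0 through day 4 to day 7 the summed enolase RPKM averaged 29.3 ± 4.18, 42.6 ± 4.23 and 46.8 ± 4.75 (SD, n = 3 each).

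**Figure D3:**
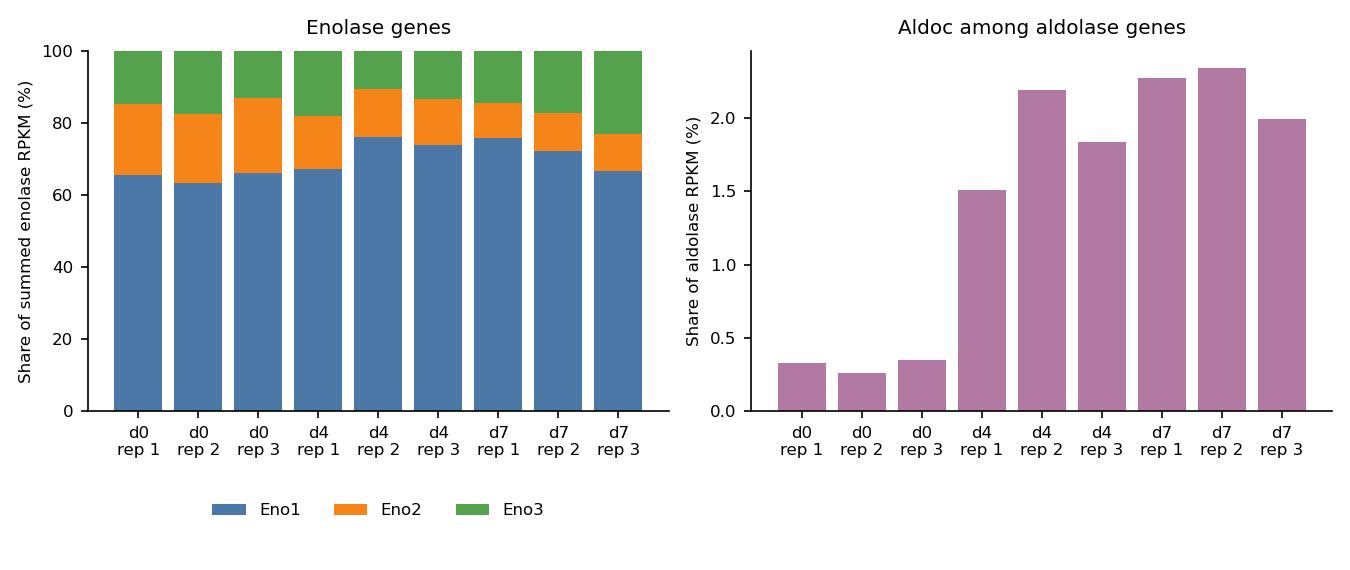
Left, the share of Eno1 (blue), Eno2 (orange) and Eno3 (green) in the summed enolase RPKM of each library, in percent. Right, the share of Aldoc in the summed RPKM of Aldoa and Aldoc, in percent, on an axis of its own. The orange part shrinks from at least 19.2% at day 0 to at most 10.7% at day 7, and Aldoc goes from at most 0.346% to at least 1.99%.

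Most of the rise was present by day 4. All 10 genes had a higher mean log2 CPM at day 4 than at day 0, Eno2 by less than 0.01, where 44.6% of all genes did, and 8 of them did not overlap between these stages, against 21.1% of all genes that were higher without overlap at day 4. None was lower without overlap (0 of 10, against 22.2% of all genes). From day 4 to day 7 the mean log2 CPM rose further for 8 genes, against 39.9% of all genes, but by at most 0.12 for Aldoa, Tpi1, Pgk1, Pgam1 and Eno1. At day 7, 2 genes (Gapdh and Eno3) exceeded all day 4 libraries, against 13.8% of all genes, and 1 (Eno2) was below all of them, against 24.6%. In mean CPM, day 4 had covered 97.3% of the way from day 0 to day 7 for Pgam1, 92.6% for Pgk1, 92.2% for Tpi1, 88.2% for Aldoa, 81.3% for Eno1, 78.9% for Aldoc, 62.6% for Gapdh and 34.5% for Eno3, and Pkm stood at 102%. Eno3 and Gapdh were therefore the later genes of the group by this measure, which compares separately normalized tables and was not tested.

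The spread within day 4 was shared by most of the genes. Day 4 replicate 1 was the lowest of the 3 day 4 libraries for 9 of the 10 genes, where 31.1% of all genes had their lowest day 4 value in it. Eno3, the exception, was highest there. Day 4 replicate 2 was the highest for 6 of the 10 genes, against 23.9% of all genes. Day 4 replicate 1 was also lowest for 12 of 14 genes tested of upper glycolysis and for 14 of 14 hypoxia genes outside glycolysis. At day 7, replicate 3 was lowest for 7 of the 10 genes, against 22.4% of all genes, and it held the highest Eno3 value, while replicate 1 was highest for 8, against 53.5%. Day 0 replicate 3 was lowest for 9 of the 10 genes, close to the 81.6% of all genes with their lowest day 0 value there. What set these libraries apart was not tested.

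Ratios within a library do not depend on how libraries were scaled, and showed that the genes did not all rise by the same factor. The CPM of each gene was divided by that of Tpi1 in the same library. Over the 9 libraries, the coefficient of variation of Gapdh fell from 37.1% for its CPM to 10.8% for its ratio to Tpi1, that of Pgam1 from 42.0% to 11.1%, and that of Aldoa from 30.2% to 11.4%. For Eno2 it grew from 11.5% to 51.2%. The ratio of Pkm to Tpi1 averaged 3.64 ± 0.174 at first, then 2.82 ± 0.0376 at day 4 and finally 2.68 ± 0.0527 (SD, n = 3 each), with no overlap between day 0 and either later stage. The ratio of Aldoa to Tpi1 likewise went from 2.89 ± 0.197 to 2.38 ± 0.0630, and that of Pgk1 to Tpi1 from 0.0471 ± 0.00857 to 0.0746 ± 0.00210 (SD, n = 3 each). Of the 9 ratios, 4 were lower at day 7 without overlap (Aldoa, Eno1, Eno2 and Pkm), 2 were higher (Aldoc and Pgk1), and 3 overlapped (Gapdh, Pgam1 and Eno3). Each of the 6 that did not overlap had an exact permutation p of 0.1, two-sided, adjusted 0.15 over the 9 ratios. The Gapdh ratio to Tpi1 overlapped between day 0 (0.0838 ± 0.00472) and day 7 (0.0859 ± 0.00434, SD, n = 3 each), and was lower in every day 4 library, at 0.0637 to 0.0749. Relative to the counted reads of Gapdh, Pkm went from 43.6 ± 4.22 to 31.2 ± 1.07 (SD, n = 3 each), although the CPM of Pkm was higher at day 7. Reads without a unique place are missing from the Gapdh value, so a ratio to its whole transcript was not measured.

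**Figure D4:**
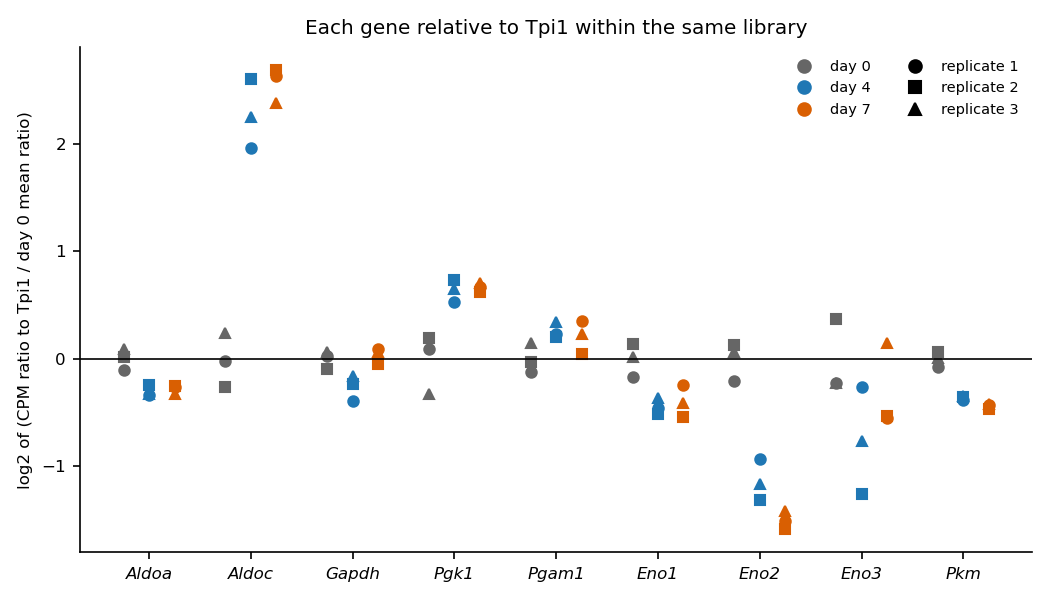
Log2 of the CPM ratio of each gene to Tpi1 in the same library, relative to the mean ratio of the day 0 libraries, with stage by colour and replicate number by marker. The day 4 and day 7 points of Aldoa, Eno1, Eno2 and Pkm lie below those of day 0, those of Aldoc and Pgk1 lie above, and the day 7 points of Gapdh lie around 0.

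Together the 10 genes took 0.296%, 0.281% and 0.238% of all reads on genes at day 0, 0.402%, 0.573% and 0.510% at day 4, and 0.548%, 0.519% and 0.466% at day 7. Day 7 exceeded day 0 in every library (0.511% ± 0.0414 against 0.271% ± 0.0301, SD, n = 3 each), with a two-sided exact permutation p of 0.1, adjusted 0.133. Aldoa, Tpi1 and Pkm held 92.9% of these reads at day 0 and 91.9% at day 7 on average, so the sum says little about the other 7 genes. Levels per length put Pkm first (798 ± 54.3 RPKM at day 7), then Aldoa (669.7 ± 65.9) and Tpi1 (351 ± 26.4), with no overlap of libraries between neighbours (SD, n = 3 each). Eno1 (33.7 ± 5.14), Gapdh (25.9 ± 2.29) and Pgk1 (25.7 ± 1.52) followed, then Aldoc (15.1 ± 2.66), Pgam1 (12.2 ± 1.77), Eno3 (8.43 ± 1.78) and Eno2 (4.73 ± 0.241), where the libraries of Gapdh and Pgk1, and those of Aldoc and Pgam1, overlapped (RPKM, SD, n = 3 each). The 4 genes with the largest shares of repeated stretches, Pgk1, Gapdh, Eno1 and Pgam1, all come after Tpi1, so this order describes countable reads rather than transcripts.

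Rows for known copies were checked as well. By symbol, 10 rows were named as a retrogene or pseudogene of a member, among them Aldoart1, Aldoart2 and Eno1b. The highest value among them in any library was 0.777 CPM, for Aldoart1. Most of the 192 Gapdh pseudogenes summed above carry other names and are not among these rows. The highest of those 192 averaged 2.21 CPM at day 7. The lowest value of any of the 10 genes was 3.01 CPM. Of the other isoform genes examined for these steps, Gapdhs, Pgk2, Eno4 and Pklr lay under the filter, with Pgk2 at 0 in every library, and Bpgm, which makes and breaks down the bisphosphoglycerate of red cells, had a log2 fold change of −0.11 that did not pass (limma adjusted p = 0.699). Aldoa, Tpi1 and Gapdh each overlap a protein-coding gene on the other strand (Fam57b, Spsb2 and Iffo1), and the strand setting of the counting is not given in the sources used here.

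Neighbouring parts of the pathway were examined as lists chosen by function. Of 14 genes tested of upper glycolysis, from glucose uptake to phosphofructokinase, 9 were higher and 1 lower at day 7, where 12.6% and 18.6% of all genes were. Their median log2 fold change was 1.04, close to the 1.07 of lower glycolysis. Pfkfb3, which makes the activator of phosphofructokinase, rose most there (2.85), and Pfkfb1 fell (−0.76, limma adjusted p = 0.0263). The Pfkfb1 call rested on few reads, 43, 21 and 19 at day 0 and 15, 9 and 28 at day 7, with overlapping libraries. It was lost with median-of-ratios scaling, in the fits on recovered reads and without the filter. Leaving out day 0 replicate 1 or 3, or day 7 replicate 1 or 2, also removed it. It held in the other alternatives. Around pyruvate and lactate, 3 of 13 genes rose and 2 fell, against the same 12.6% and 18.6% of all genes, with a median of −0.06. These counts are not far from those shares. The lactate exporter Slc16a3 rose by 3.72 on the log2 scale, Pdk1, the kinase that restrains pyruvate dehydrogenase, by 2.22, and Ldha by 1.15, whereas Pcx, pyruvate carboxylase, fell by 1.39 and Ldhb by 1.03.

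Of 9 genes tested from the side branches that draw on lower glycolysis, limma called 0 higher and 4 lower, where 12.6% and 18.6% of all genes were called, with a median log2 fold change of −0.23 against −0.11 over all genes. At an unadjusted p under 0.05 limma also had 0 higher, but the count depended on the scaling: 3 genes were called higher with median-of-ratios scaling, 3 with edgeR, 3 with voomWithQualityWeights and 2 with DESeq2. Gpd2, the mitochondrial enzyme of the glycerol phosphate shuttle, had 58.8, 63.2 and 54.5 CPM at day 0, 41.8, 36.3 and 38.8 at day 4, and 32.3, 32.0 and 31.2 at day 7 (log2 fold change −0.87, limma adjusted p = 1.86e-05). Psat1 (−0.46) and Phgdh (−0.41), enzymes of serine synthesis from phosphoglycerate, and Gpd1l (−0.50) fell less, with limma adjusted p of 0.0234, 0.0485 and 0.0316. The count of lower genes ranged from 1 to 5 over the alternatives and was 1 without day 0 replicate 1, day 0 replicate 2, day 7 replicate 1 or day 7 replicate 2, and 2 with the replicate number as a block. Of 6 genes listed for the reverse steps of gluconeogenesis, 4 lay under the filter and the others, Pck2 (0.07) and G6pc3 (0.22), did not pass. With median-of-ratios scaling, edgeR or voomWithQualityWeights, 1 of them was called higher.

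Hypoxia genes outside glycolysis, a list of 14 that respond to low oxygen in many cells, rose in 13 cases and fell in 0, with a median log2 fold change of 2.04. Over all genes tested, 12.6% were called higher and 18.6% lower. Egln3, an oxygen sensor, rose most (4.75), and Adm did not pass (0.15, limma adjusted p = 0.575). In the same libraries the lower glycolysis genes changed less, at a median of 1.07.

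**Figure D5:**
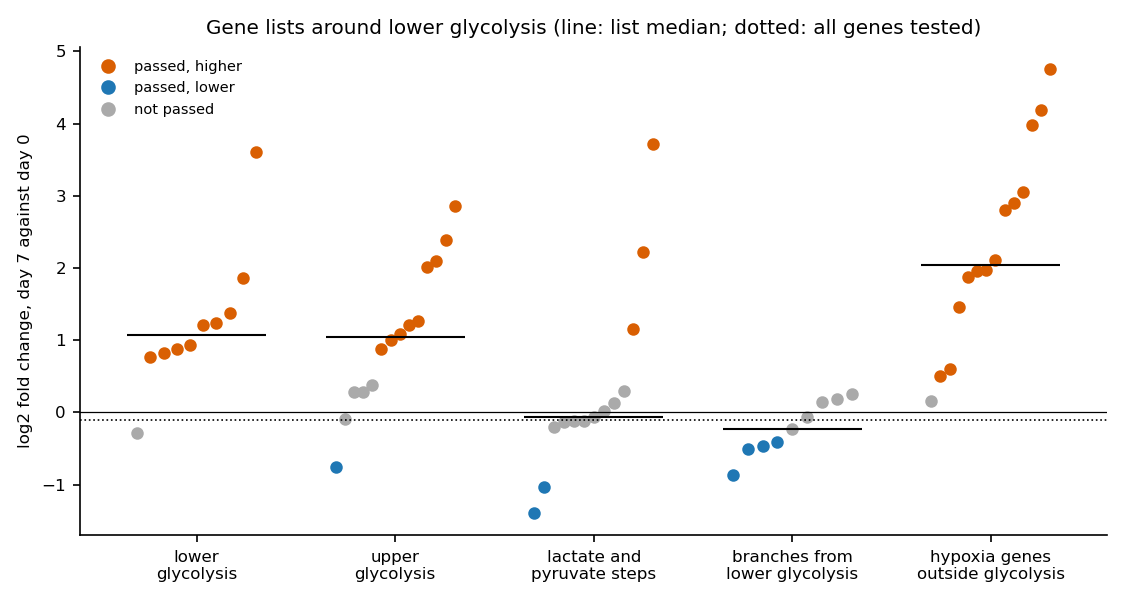
Change between day 0 and day 7, on the log2 scale, of every gene tested in 5 lists, in orange where it passed as higher, blue where it passed as lower and grey where it did not pass, with the list median as a line and the median of all genes, −0.11, dotted. Lower and upper glycolysis have medians of 1.07 and 1.04, the branches from lower glycolysis lie around −0.23, and the hypoxia genes reach furthest up.

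Upstream sequence is shown because most of these genes moved together. In the 250 bases before each start site that RefSeq gives (GRCm38.p6), the letters ACGTG and GCGTG, the forms that the core of a hypoxia response element can take, were searched on both strands. ACGTG also lies within CACGTG, the E-box. All 10 genes matched, with 16 start sites, of which some of the same gene overlap. At least 1 match lay in 12 of the 16 windows, against 38.6% of the 32851 windows of all genes. These sets of windows were not matched for base composition. Overlapping windows of Aldoa and of Eno1 hold the same matches, which were counted in each window. By gene, 8 of the 10 had a match in at least 1 window, and no share over all genes was computed for this count. ACGTG alone lay in 5 of 16 windows, against 16.6%, and GCGTG in 28.2% of all windows. The windows of Tpi1, which rose, and of Eno2, which did not, held no match. The windows of the 4 genes with 1 start site, a match and no annotated exon in the window are printed, with matches on either strand in capitals (CACGT and CACGC are the same letters read on the other strand): Pgk1 at chrX:106186850-106187099, Pgam1 at chr19:41911621-41911870 and Eno3 at chr11:70656926-70657175 on the forward strand, and Gapdh at chr6:125165774-125166023 on the reverse strand.
Pgk1: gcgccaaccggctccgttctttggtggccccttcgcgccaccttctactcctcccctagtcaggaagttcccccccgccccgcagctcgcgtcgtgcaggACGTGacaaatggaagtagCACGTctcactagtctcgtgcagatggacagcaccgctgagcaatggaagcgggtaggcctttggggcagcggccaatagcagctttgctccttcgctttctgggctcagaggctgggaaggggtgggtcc
Pgam1: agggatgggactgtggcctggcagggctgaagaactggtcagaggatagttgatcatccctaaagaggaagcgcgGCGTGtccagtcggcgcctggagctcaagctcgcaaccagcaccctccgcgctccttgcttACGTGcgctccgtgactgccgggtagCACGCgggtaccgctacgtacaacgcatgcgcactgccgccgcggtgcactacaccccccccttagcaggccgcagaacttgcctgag
Gapdh: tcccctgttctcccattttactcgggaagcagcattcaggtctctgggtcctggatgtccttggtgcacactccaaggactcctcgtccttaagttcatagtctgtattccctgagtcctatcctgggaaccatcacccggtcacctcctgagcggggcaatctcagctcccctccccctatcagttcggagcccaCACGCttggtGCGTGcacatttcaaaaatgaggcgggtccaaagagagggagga
Eno3: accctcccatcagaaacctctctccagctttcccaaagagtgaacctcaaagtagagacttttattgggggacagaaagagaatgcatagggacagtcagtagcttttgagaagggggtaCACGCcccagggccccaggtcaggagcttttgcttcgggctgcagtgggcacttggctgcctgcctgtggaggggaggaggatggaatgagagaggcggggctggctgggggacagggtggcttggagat
The matches of Pgk1 begin 150 and 131 bases before the start site, those of Gapdh 54 and 44 bases, those of Pgam1 175, 114 and 88 bases, and that of Eno3 130 bases. A match describes the letters in the window and no binding was measured here.

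The genes whose profile over the 9 libraries was nearest to the median profile of the 10 genes, each centred on its own mean log2(CPM + 0.5), were sought among 9090 other genes with a mean of at least 10 CPM. They were Kdm7a (root mean square difference 0.07), Ldha (0.08), Tspan11 (0.08), Endog (0.09) and Gpi1 (0.09), where the median over the genes compared was 0.57. Among the 10 genes, Tpi1 and Aldoa were nearest to their own median profile (0.09 each) and Aldoc farthest (1.16). Ldha, lactate dehydrogenase A, had 735, 714 and 548 CPM at day 0, 1076, 1346 and 1310 at day 4 and 1659, 1406 and 1350 at day 7, and so followed Pkm and Tpi1 in the order of the libraries at day 0 and day 7.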

How the data were processed

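The labels name Ribo-Zero Gold, a kit that removes ribosomal RNA, for the total RNA. Alignment by the authors was with STAR 2.0.4b, against Ensembl release 76 (GRCm38). Counts per gene came from featureCounts (1.4.5 in the methods, 1.45 in the processing notes), which took in reads with a unique alignment and no ambiguity. They deposited CPM values, scaled to a fixed total of reads counted on genes, and RPKM values, which the authors also divided by gene length, in a table for day 0 and day 7 and another for day 4. In each library 100% of the CPM values came out as whole reads, within 0.05 of a whole number, so the reads on genes, 7741204 to 37306090 a library, could be recovered.

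Groups came from the labels. For the test of day 7 against day 0, limma 3.58.1 (R 4.3.3, trended variances) was run on log2(CPM + 0.5) of 12712 genes with a mean of at least 1 CPM over the 6 libraries, with Benjamini-Hochberg adjustment at 0.05. The script was tested on simulated data. Alternatives were other pseudocounts, no filter, the RPKM table, median-of-ratios scaling, edgeR 4.0.16 and DESeq2 1.42.0 on recovered reads, which called 5468 and 4910 genes, voomWithQualityWeights as in the methods, robust variances, a replicate block and leaving out each library. Shares and ratios were compared with exact permutation tests, the aldolase share over Aldoa and Aldoc only, where the plan had a further gene that is not reported here. The genes, lists and tests were chosen with earlier results of these data known. Named besides the 10 genes are genes of the lists, which include at least those with the largest called changes in either direction, markers of other cell types, named copies of members, and the 5 genes nearest in profile. Sequences are from RefSeq (promoters) and GENCODE M21 transcripts.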

Additional observations from a re-analysis of the deposited data

How the results depend on the processing

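The median change over the genes tested, −0.11 on the log2 scale, moved to −0.01 with median-of-ratios scaling, and the share of the called genes that were higher moved with it, from 1602 of 3971 to 2843 of 5455. Counts of all genes called ranged from 2906 to 6299 when a library was left out, with 6299 without day 0 replicate 3, and came to 6120 with TMM and voomWithQualityWeights. The cause was not tested. Of the 10 genes, 9 were called higher in every alternative. The count of lower genes among the 10 was 0, or 1 (Eno2) without day 0 replicate 3, a range of 0 to 1 over the libraries left out. Without that library 4696 of all 12712 genes tested were called lower. The rise of Aldoc within aldolase was 2.23 percentage points with CPM in place of RPKM, which leaves out gene length. The rise of the 10 genes was 0.391 percentage points as a share of reads on genes under 1000 CPM and the members, where the total is smaller by construction. Same-numbered libraries of day 0 and day 7 deviated with correlations of −0.02, −0.18 and −0.44, and the main fit took the libraries as unpaired. Whether same-numbered libraries share an isolation is not stated and cannot be told from these correlations. Between day 4 and day 7 the same-numbered correlations were 0.10, 0.28 and 0.34 and the others ran from −0.34 to 0.02, but no test between these stages was run. Between day 0 and day 4 they were 0.05, 0.07 and −0.26. The fit with a replicate block called 3413 genes and changed no call among the 10 genes. Low counts limit Aldoc, Eno3, Pgam1 and Pgk1 at day 0, with 28 to 83 reads in replicate 3.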
